A study of Mus musculus with 96 samples.

Results

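A set of 9 genes known from embryonic stem cells and the germ line was measured among 96 assays in single cells of the mouse uterus. The 9 assays were those for Nanog, Dppa2, Tdgf1 (listed as cripto), Sall4, Sox2, Pou5f1 (listed as OCT4), Esrrb, Fut4 (listed as ssea1) and Lin28a, matched by gene symbol or common name. The cells were taken from uteri of 7-day-old mice (postnatal day 7), were freed with collagenase and were sorted singly by flow cytometry for CD326, the epithelial adhesion molecule encoded by Epcam. Each of the 96 cells gave 1 quantitative PCR value per assay on a microfluidic chip. All cells form 1 group, and the labels name no treatment, control, strain, genotype or animal, so that cells are not replicates of a condition and no test between groups was made. Epithelial transcripts were found in most cells, with Krt19 in 93 cells, Krt18 in 91 and Epcam itself in 74. Markers of other cell types ranged from frequent to rare. Of the endothelial genes, Pecam1 was in 93 cells, Cd34 in 49 and Eng in 13, and the leukocyte gene Ptprc was in 57. Of the stromal genes, Nt5e was in 83 cells, Mme in 73, sma in 70, Thy1 in 17, Mcam in 15 and Vim in 7. Of the 6 germ cell markers listed for this report only Kit and Pou5f1 were on the chip, so that a germ cell could not be recognised from its defining markers here.

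The transcription factors encoded by Pou5f1 (OCT4), Sox2 and Nanog form the core of the network that keeps embryonic stem cells pluripotent. OCT4 and SOX2 bind DNA side by side at a composite element, and the Nanog promoter is a well known example of a gene controlled through it. Sall4 encodes a zinc finger factor and Esrrb an orphan nuclear receptor, both tied to the same network. Dppa2 encodes a chromatin factor active in early embryos and germ cells, and Tdgf1 encodes Cripto, a co-receptor of Nodal signalling in the embryo. Fut4 encodes a fucosyltransferase, and its assay was listed under the name of SSEA-1, a carbohydrate of mouse embryonic stem cells that was not itself measured. Lin28a encodes an RNA-binding protein that blocks maturation of let-7 microRNAs. At this age the uterine epithelium of the mouse has yet to mature and its glands begin to form.

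Promoter sequences are shown for Nanog and Tdgf1, both found in most cells, because the first holds the composite element and the second does not. Any link between the element and the levels of these genes was not tested. Both run 5′ to 3′ on the gene's strand over the 250 bases before the annotated start site (RefSeq, GRCm38.p6), at chr6:122707239-122707488 on the plus strand for Nanog and chr9:110946159-110946408 on the minus strand for Tdgf1. Capitals mark the octamer core ATGCAAA, the Sox core CATTGT or either reverse complement, and the capitals in Nanog form the composite element, a Sox core, any 1 base and an octamer core, read on the opposite strand.
Nanog: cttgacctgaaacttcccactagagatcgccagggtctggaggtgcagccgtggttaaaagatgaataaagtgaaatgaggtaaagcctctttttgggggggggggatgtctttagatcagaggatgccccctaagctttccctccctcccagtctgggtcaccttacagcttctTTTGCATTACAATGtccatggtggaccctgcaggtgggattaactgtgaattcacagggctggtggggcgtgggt
Tdgf1: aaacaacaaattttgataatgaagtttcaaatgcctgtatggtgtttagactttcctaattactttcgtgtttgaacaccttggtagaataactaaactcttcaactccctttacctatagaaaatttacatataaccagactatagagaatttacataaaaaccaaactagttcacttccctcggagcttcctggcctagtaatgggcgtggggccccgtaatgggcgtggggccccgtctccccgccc

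In Nanog the octamer core began 75 bases before the start site and the Sox core 67 bases before it, separated by 1 base. Over the same 250 bases, the octamer core was found in 4.12% of 32851 promoters of the RefSeq table on either strand and the Sox core in 10.7%. The composite, which contains both cores, was found in 2, and both of these were start sites of Nanog. Their windows overlap and hold the same copy of the element. Only these exact letters at this spacing were searched for, so that variants of the element at other genes would be missed. Of the other members with an entry, Sox2 held 1 octamer core (at chr3:34649745-34649994), Lin28a held 1 Sox core, and Pou5f1 held 1 Sox core at its second listed start site and none at the first. Tdgf1, Esrrb and Fut4 held neither core. The table had no entry for Dppa2 or Sall4. These are matches of letters in a window, not measured binding.

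Each value is a cycle threshold (Ct), the number of PCR cycles needed before product is seen, so that a lower Ct means more template. Any Ct below 28 counted as detection of the gene in that cell. Over the whole panel 4851 of 9216 values were detected, and a cell detected a median of 54 of 96 assays with a range of 9 to 78. Gapdh, the reference gene, was at a median Ct of 13.4. In 8 cells, called low-Gapdh cells here, the Gapdh Ct was above 18 or no value was recorded, and these detected 9 to 30 genes. Cell 67 is among them because no value was recorded in its first 71 assays, which hold 6 of the 9 genes. No pair of assays was matched for primer efficiency in the sources used here, so that Ct values of different genes compare only in rough order. Intervals are exact (Clopper-Pearson) at 95% and cover counting error only.

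The set split into 4 genes found in most cells and 5 found in a minority or in none. Dppa2, Nanog, Tdgf1 and Sall4 were each detected in at least 50% of cells, which 55.2% of all assays also reached, while Pou5f1, Esrrb and Lin28a were each found in under 10%, which 10.4% of all assays were. Of the 864 values of the set 354 were detected (41.0%), beside 52.6% over the whole panel. The genes of the core factors were far apart in the order: Nanog was in 77 cells, Sox2 in 26 and Pou5f1 in 7.

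**Figure D1:**
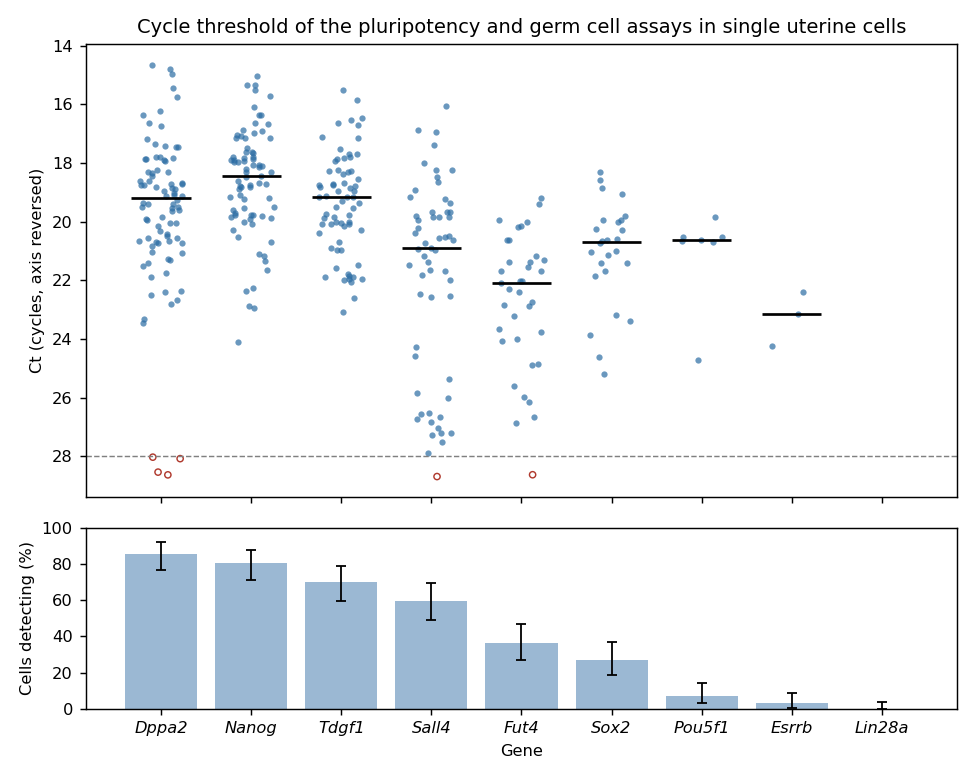
The upper panel plots the Ct of every cell with a recorded value for each gene on a reversed axis, with filled points below the limit of 28 (dashed line), open points at 28 or above and a bar at the median of the detected values; the lower panel gives the share of 96 cells with its exact 95% interval. The detected values of Dppa2, Nanog and Tdgf1 lie between 14.6 and 24.1, Sall4 falls into an early and a late group, and Lin28a has no point.

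Nanog had a Ct below the limit in 77 of 96 cells (80.2%, interval 70.8 to 87.6%). Its Ct had a lowest value of 15.0, a median of 18.4 and a highest of 24.1, and the other 19 cells had no Ct at all. No value of Nanog lay within 2 cycles of the limit. Pou5f1 was seen in 7 cells (7.29%, interval 2.98 to 14.4%), with a Ct from 19.8 to 24.7 and a median of 20.6. Of its 7 values, 6 lay below 22, in the range where Sox2 was found and later than most values of Nanog. Sox2 was seen in 26 cells (27.1%, interval 18.5 to 37.1%) at a Ct of 18.3 to 25.2 with a median of 20.7. The intervals of these 3 genes did not overlap.

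Dppa2 had the highest share of the set, 85.4% (82 of 96, interval 76.7 to 91.8%). Its Ct ran from 14.6 to 23.4 with a median of 19.2, and 4 further cells had a Ct of 28 or above and were counted as undetected. Tdgf1 followed Nanog with 69.8% (67 of 96, interval 59.6 to 78.7%) and a Ct of 15.5 to 23.1 with a median of 19.2. For both genes every detected value came before a Ct of 24. Over the whole panel 7.03% of detected values came at 24 or later, with a median of 1.61% over the 78 assays found in at least 20 cells. Of these 78 assays, 50 had a larger part there than Dppa2 and Tdgf1. The intervals of Dppa2 and Nanog overlapped, as did those of Nanog and Tdgf1 and of Tdgf1 and Sall4. These intervals do not use the fact that all genes were measured in the same cells. Dppa2 without Nanog was seen in 8 cells and the reverse in 3. Nanog without Tdgf1 was seen in 15 and the reverse in 5, and Tdgf1 without Sall4 in 20 and the reverse in 10.

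Sall4 was seen in 57 cells (59.4%, interval 48.9 to 69.3%), with a Ct of 16.0 to 27.9 and a median of 20.9. Its values fell into 2 ranges, 41 cells at a Ct of 16.0 to 22.6 and 16 cells at 24.3 to 27.9, with no cell in the 1.71 cycles between them. Late values made up 28.1% of its detected values, and only 9 of the 78 assays found in at least 20 cells had a larger part there. Gapdh was at a median Ct of 12.7 in the early cells and 13.7 in the late ones, and the early cells detected a median of 56 genes against 51. Nanog was found in 37 of the 41 early and 11 of the 16 late cells. With the limit at 26, Sall4 was at 46.9% and with the limit at 24 at 42.7%, so that its place among the genes of most cells rests on the late values.

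Fut4 was found in 36.5% of cells (35 of 96, interval 26.9 to 46.9%) at a Ct of 19.2 to 26.9 with a median of 22.1, the latest median of the set after Esrrb. Esrrb was found in 3 cells (3.12%, interval 0.649 to 8.86%), at a Ct of 22.4, 23.1 and 24.2. Lin28a had no Ct in any cell, while the other 95 assays were each detected in some cell. If its assay works, a count of 0 in 96 cells leaves room for a true share of 3.12% (3 counts) or, from the exact interval, of 3.77%. Whether the Lin28a assay works was not tested. The interval of Fut4 lay below that of Sall4 and overlapped that of Sox2, and those of Pou5f1, Esrrb and Lin28a overlapped in turn. In the order of all assays, Dppa2 stood with the integrin gene Itgb1 (82 cells each) between Nt5e (83) and Kit (81). Nanog stood with Cd44 and Cd9 (77 each) just above Epcam and Esr1 (74 each), Tdgf1 just above Hprt (64), and Sall4 with Lgr6 and Ptprc (57 each). Sox2 stood with Abcg2 and Mst1r (26 each), Fut4 next to Itgae (34), and Pou5f1 with Foxa2, Ngfr and Vim (7 each). Fbxo15, another gene of embryonic stem cells, was found in 6 cells, between Pou5f1 and Esrrb.

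The median cell had 4 of the 9 genes, and 68 of 96 cells had 3 to 5 of them. The number ran from 0 in 5 cells to 7 in cell 44, and no cell detected 8 or 9. It moved with depth: cells with none of the genes detected 9 to 33 assays in all, those with 4 a median of 54 and those with 6 a median of 60. Of the 5 cells with none, 4 were low-Gapdh cells. The fifth, cell 33, had a Gapdh Ct of 13.1 and detected 33 assays, among them Krt18, Krt8, Cdh1 and Kit. The part of depth in the count of genes per cell was not tested.

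**Figure D2:**
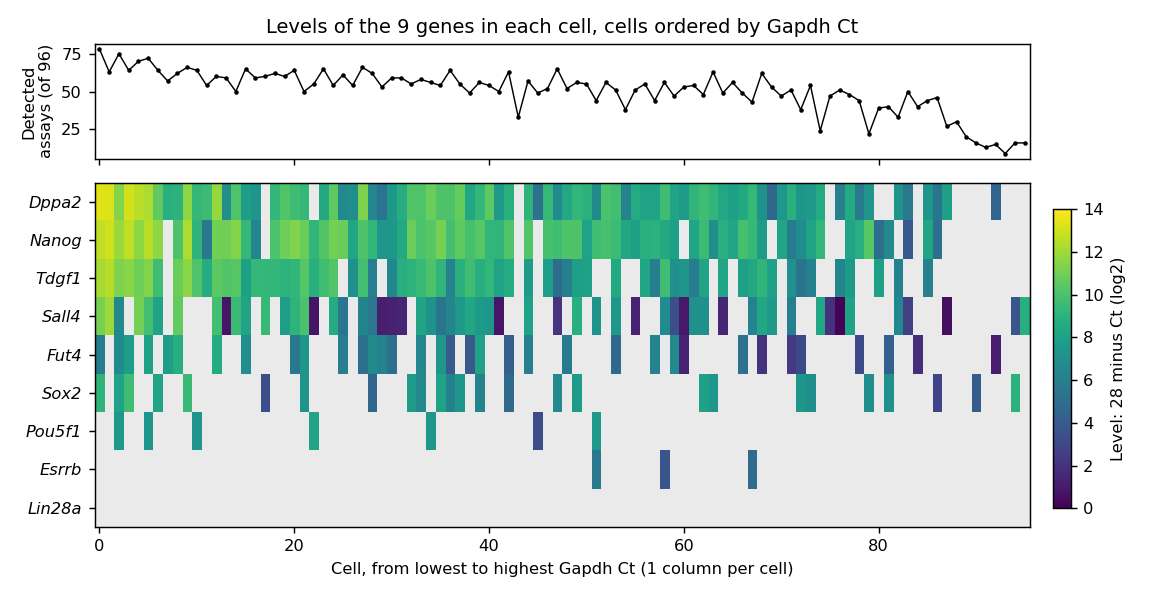
Each column is 1 cell, ordered by Gapdh Ct from lowest to highest. The upper panel gives the number of assays detected in that cell, and the colour below gives the level of each gene as 28 minus Ct on a log2 scale, with grey for undetected. Dppa2, Nanog and Tdgf1 are filled over most columns and thin out at the right, where the 8 low-Gapdh cells hold 1, 0 and 0 of their detections.

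Most cells had neither Sox2 nor Pou5f1, whether or not Nanog was found. In 49 cells (51.0%, interval 40.6 to 61.4%) Nanog was detected and neither Pou5f1 nor Sox2 was. In 22 cells it was found with Sox2 alone, in 5 with Pou5f1 alone and in 1, cell 44, with both. Sox2 without Nanog was seen in 3 cells, which detected a median of 16 genes, and Pou5f1 without Nanog in 1. The other 15 cells had none of the 3 genes and detected a median of 33 assays. Both Sox2 and Pou5f1 were thus undetected in 49 of the 77 cells with Nanog and in 15 of the 19 without it. Lack of both was therefore no more frequent in cells with Nanog. All low-Gapdh cells were among the cells without Nanog.

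The range of Nanog Ct overlapped among these combinations. In the 49 cells without either factor its Ct ran from 15.0 to 24.1 with a median of 18.8, and in the 22 with Sox2 from 15.3 to 22.9 with a median of 17.9. In the 5 with Pou5f1 it ran from 15.5 to 18.9 with a median of 18.3. The ranges also overlapped after the Gapdh Ct of the same cell was subtracted, with medians of 5.78, 5.20 and 5.07 cycles. Sox2 and Pou5f1 were found together only in cell 44, which detected 75 assays. The reprogramming factor genes Klf4 and Myc were both found in 80 cells, with Sox2 in 23 of them, with Pou5f1 in 7 and with both in cell 44.

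The 7 cells with Pou5f1 carried transcripts of epithelium and of other cell types. All 7 detected Krt18, Krt19, Klf4 and Myc, and 6 detected Epcam, at a Ct of 17.4 to 24.4. The Ct of Krt18 was 10.5 to 15.0 in 5 of them and 21.2 and 23.0 in cells 69 and 32. Pecam1, found in 93 of all 96 cells, was also detected in all 7, at a Ct of 14.0 to 18.8, and Ptprc in 4. Of the other 89 cells, Krt19 was in 86, Krt18 in 84, Klf4 and Myc in 78 each, Epcam in 68 and Ptprc in 53. The proliferation gene Mki67 was found in 6 of the 7 and in 23 of the other 89 cells. Kit, the stem cell factor receptor of germ cells among others, was in 4 of the 7 and in 77 of the other 89. Of the 7 cells, Nanog and Dppa2 were each found in 6, Tdgf1 and Sall4 in 5, Fut4 in 2 and Sox2 in 1. The 7 cells detected 44 to 75 assays at a Gapdh Ct of 10.2 to 13.5. Cell 32, at 44 assays, was the only cell with both Pou5f1 and Esrrb, lacked Epcam and detected Vim, a mesenchymal gene, at a Ct of 26.7. The other cells with Esrrb, cells 3 and 89, detected Nanog, Dppa2, Tdgf1, Sall4 and Kit as well.

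Dppa2, Nanog and Tdgf1, each found in most cells, overlapped in most cells as well. All 3 were detected in 60 cells (62.5%), 2 of them in 20, 1 in 6 and none in 10. Nanog and Dppa2 were both found in 74 cells, which is 96.1% of the Nanog cells and 90.2% of the Dppa2 cells. Nanog was found without Tdgf1 in 15 cells and Dppa2 without Tdgf1 in 18. Of the 10 cells with none of the 3 genes, 7 were low-Gapdh cells. The remaining cells, 26, 33 and 63, had a Gapdh Ct of 16.0, 13.1 and 14.7 and detected 33 to 47 assays, with Krt18 at a Ct of 13.2 to 16.9 in each. The most frequent full combinations of the set were Nanog, Dppa2, Tdgf1 and Sall4 with or without Fut4, in 12 cells each, and 33 different combinations were seen in all.

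In the cells that detected them, the Ct values of these 3 genes moved together. Over the 74 cells with Nanog and Dppa2 Pearson's r was 0.68 (Spearman's rho = 0.66), and leaving out the 2 cells most distant from the median Dppa2 Ct gave an r of 0.64. Dppa2 and Tdgf1 had an r of 0.73 in 64 cells (rho = 0.70), and Tdgf1 and Nanog an r of 0.63 in 62 cells (rho = 0.68). The median r over 2461 pairs of assays found together in at least 20 cells was 0.33. The SD of the difference in Ct was 1.45 cycles for Dppa2 and Nanog, 1.30 for Dppa2 and Tdgf1 and 1.48 for Tdgf1 and Nanog, against a median of 2.41 over those pairs. All assays of a cell share its template and preamplification, and with the rank of Gapdh Ct held fixed the rho values were 0.48, 0.49 and 0.38. No p is given, since these are cells of 1 group.

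**Figure D3:**
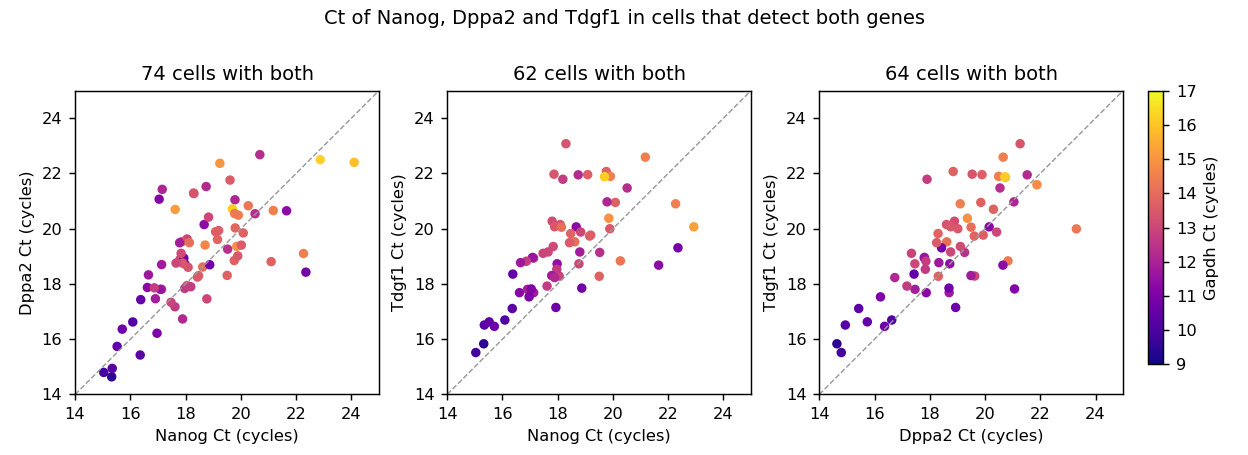
Each point is a cell that detected both genes named on the axes, in Ct cycles, coloured by its Gapdh Ct, with a dashed line of equal Ct. Points rise along the line in all 3 panels, and most cells with the lowest Gapdh Ct sit at the lower left.

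Other pairs of the set with at least 20 common cells rest on fewer cells. Dppa2 and Sox2 had an r of 0.79 in 22 cells and 0.69 when the 2 cells most distant from the median Dppa2 Ct were left out. Sox2 and Nanog had an r of 0.65 in 23 cells, or 0.50 with 2 cells left out, and Tdgf1 and Sox2 an r of 0.50 in 20 cells. Sall4 had an r of 0.63 with Dppa2 (52 cells), 0.56 with Tdgf1 (47 cells) and 0.56 with Nanog (48 cells). Fut4 had an r of 0.60 with Nanog, 0.49 with Dppa2 and 0.46 with Tdgf1, but a rho of 0.16, 0.07 and -0.03 once Gapdh was held fixed. Fut4 and Sall4 had an r of 0.38 in 24 cells and a rho of 0.06 with Gapdh held fixed. Held fixed in the same way, Sox2 had a rho of 0.66 with Dppa2, 0.52 with Tdgf1 and 0.48 with Nanog. Sall4 then had a rho of 0.43 with Dppa2, 0.42 with Tdgf1 and 0.50 with Nanog. Values of this size were thus not particular to Nanog, Dppa2 and Tdgf1.

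Most of the set was detected more often in cells with a lower Gapdh Ct, as was most of the panel. In the 48 cells with the lower Gapdh Ct, Tdgf1 was detected in 43 and in the other 48 cells in 24, while Nanog was in 44 and 33, Dppa2 in 45 and 37 and Sall4 in 34 and 23. Fut4 was in 22 and 13, Sox2 in 16 and 10 and Pou5f1 in 6 and 1. Of the 8 genes found in any cell, 7 were found more often in the lower-Ct cells, which held for 91.6% of all such assays, and the exception was Esrrb with 0 and 3. The median difference was 17.7 percentage points over the 8 genes and 18.8 over 95 assays. Whether a cell without a Ct lacked the transcript or gave too little template was not tested.

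The cells were also split into 4 groups of 24 by Gapdh Ct. Nanog was found in 22 of 24 cells in each of the first 3 groups and in 11 of 24 in the last, where Gapdh was at 14.5 or later. Dppa2 was found in 22, 23 and 24 cells and then in 13. Tdgf1 went down at each step, with 23, 20, 17 and 7 of 24. Sox2 had no such order, with 7, 9, 3 and 7, and 2 of the 8 low-Gapdh cells detected it, against 0 for Nanog and Tdgf1 and 1 for Dppa2. Without the low-Gapdh cells Nanog was at 87.5% of 88 cells, Dppa2 at 92.0%, Tdgf1 at 76.1%, Sall4 at 62.5%, Fut4 at 38.6% and Sox2 at 27.3%.

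**Figure D4:**
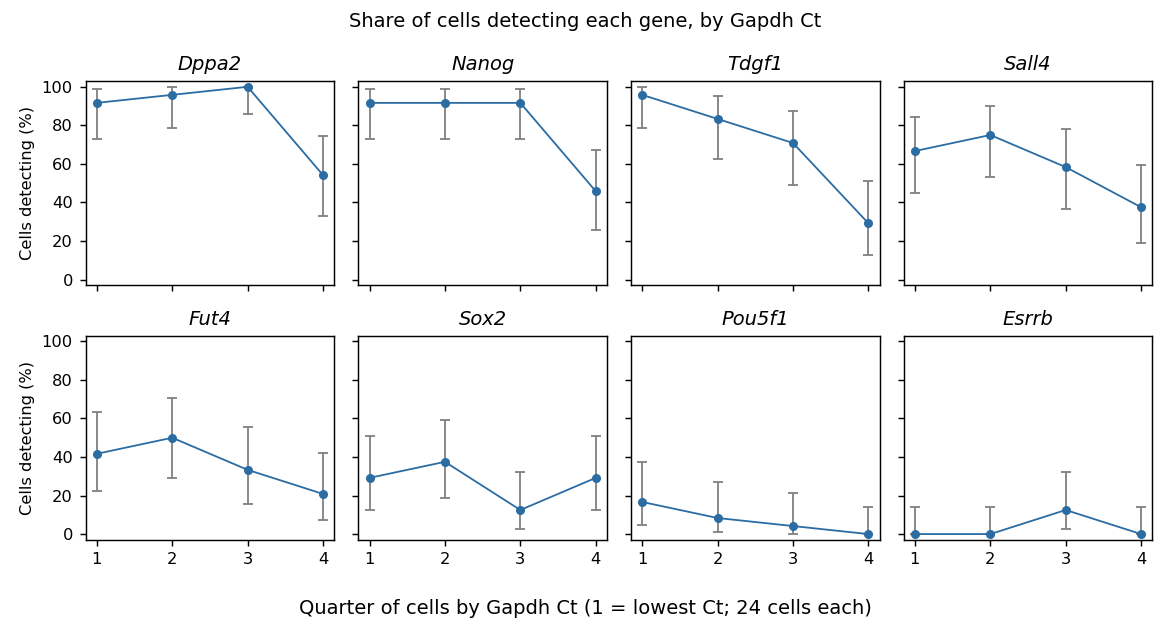
The panels give the share of cells that detected each gene in 4 groups of 24 cells by Gapdh Ct, from the lowest (1) to the highest (4), with exact 95% intervals. Nanog stays at 91.7% over groups 1 to 3 and is at 45.8% in group 4, while Tdgf1 goes from 95.8% to 29.2%.

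In detecting cells outside the low-Gapdh cells, the Ct of Tdgf1 followed that of Gapdh more closely than nearly all assays. Its rho was 0.75 (r = 0.75, or 0.72 with the 2 cells most distant from the median Gapdh Ct left out) in 67 cells, the third highest of 75 assays. Fut4 had a rho of 0.71 in 34 cells, Nanog 0.66 in 77 and Dppa2 0.56 in 81, beside a median of 0.54 over the assays. Sall4 was at 0.46 in 55 cells. Sox2 was also at a rho of 0.45, in 24 cells, with an r of 0.47 that became 0.23 without 2 cells and so rests on them. On average Nanog came 5.80 ± 1.43 (SD) cycles after Gapdh, Dppa2 6.31 ± 1.56 and Tdgf1 6.74 ± 1.16, and Fut4 9.75 ± 1.39.

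To see which genes had patterns most like those of the set, levels (28 minus Ct, and 0 where undetected) were compared over all 96 cells once a straight-line dependence on the count of detected assays had been removed. The closest gene to Nanog was Dppa2 (rho = 0.62, r = 0.57), followed by Cd34, a sialomucin gene of endothelial and blood progenitors (0.49 and 0.51), and Enpep, an aminopeptidase gene (0.44 and 0.40). After Nanog, the closest to Dppa2 were Enpep (0.55 and 0.53) and Lgr6, an R-spondin receptor gene (0.52 and 0.45). For Tdgf1 they were Dppa2 (0.50 and 0.33), Enpep (0.49 and 0.38) and Nanog (0.43 and 0.31). Of the 495 pairs with a member, 4 had a rho of at least 0.5, or 0.808%, beside 1.89% of all 3655 pairs. Of the 15 pairs within the set 2 reached it, Nanog with Dppa2 and Dppa2 with Tdgf1, and the median rho was 0.17 over these 15 and 0.03 over all pairs. Without the fit on detected assays 22 genes in place of 5 reached 0.5 with a gene of the set. Each of the 4 pairs with the fit held Dppa2.

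Sall4, Sox2 and Fut4 had no partner at a rho of 0.5. The closest to Sall4 were Cd40 (rho = 0.37, r = 0.39), Mst1r (0.33 and 0.30) and Tdgf1 (0.31 and 0.37), and Sall4 stood at 0.21 with Nanog. For Fut4 they were the Wnt receptor gene Fzd9 (0.50 after rounding, r = 0.43, 19 cells with both), Thy1 (0.34 and 0.22) and Eng (0.29 and 0.16). For Sox2 they were Hoxa10 (0.41 and 0.18), Eng (0.32 and 0.01) and Hoxa11 (0.32 and 0.10), genes that shared 6, 4 and 11 cells with it, so that the rank values rest mainly on undetected cells. Sox2 stood at 0.13 with Nanog and 0.09 with Dppa2.

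Markers of other cell types moved with Nanog, Dppa2 and Tdgf1 to different degrees. All 49 cells with Cd34 detected Nanog and 48 of them Dppa2, and of the 57 cells with Ptprc (CD45, a leukocyte phosphatase) 54 detected Nanog and 56 Dppa2. None of these Cd34 or Ptprc cells was a low-Gapdh cell, and of all 88 cells outside that group 77 detected Nanog and 81 Dppa2. The overlap was similar for Enpep and Lgr6. Of 62 cells with Enpep 59 detected Nanog and 62 Dppa2, and of 57 with Lgr6 54 and 56 did. The rho with Ptprc was 0.35 for Nanog, 0.36 for Dppa2 and 0.36 for Tdgf1. On the endothelial list (3 of 5 genes measured), Pecam1 and Eng stood with Nanog at 0.17 and 0.10. They stood at 0.12 and 0.20 with Dppa2 and at 0.005 and 0.14 with Tdgf1. On the stromal list (6 of 7 measured), Vim was in 7 cells, too few to compare. With Nanog, Nt5e and Mme stood at 0.31 and 0.33, Thy1 and Mcam at -0.03 and -0.01 and sma at -0.26. In the same order these genes stood at 0.14, 0.24, 0.03, 0.15 and -0.19 with Dppa2. With Tdgf1 they stood at -0.005, 0.09, 0.04, 0.03 and -0.14. Over all 10 such markers the median cell detected 5, and their summed level ran from 0 to 81.1 with a median of 46.5. The number of these markers in a cell stood at a rho of 0.36 with the level of Nanog. The part of these markers in the pattern was not tested.

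After the fit on detected assays, most epithelial genes and the other genes of pluripotent and germ cells had low or negative values with the same 3 genes. Epcam stood at a rho of -0.37 with Nanog, -0.37 with Dppa2 and -0.27 with Tdgf1, and Krt18 at -0.24, -0.34 and -0.38, while Krt8 stood at 0.31, 0.17 and 0.11. Of a list of 35 other pluripotency and germ cell genes 7 were measured, and Epcam is on this list and on the epithelial one. Of the 7, 6 were found in at least 50% of cells, which 55.2% of all assays also reached. Klf4 and Myc were in 85 cells each, Kit in 81, Cd9 in 77, Epcam in 74 and Itga6 in 68, with Tbx3 in 22. Of their 21 pairs with Nanog, Dppa2 and Tdgf1 none reached 0.5, 16 were below 0, and the range was -0.38 to 0.21. All values of Epcam, Itga6 and Cd9 were below 0, and the lowest was that of Itga6 with Dppa2. Klf4, Myc and Kit ranged from -0.21 to 0.01 and Tbx3 from 0.14 to 0.21. Sall4 stood at -0.38 with Klf4 and -0.37 with Cd9. Without the fit, the 3 lowest values of each of Nanog, Dppa2 and Tdgf1 rose above 0, and so did those of Fut4. Those of Sall4 and Sox2 stayed below 0. Nanog with Epcam stood at 0.12 without the fit, Dppa2 with Wnt7a at 0.073 in place of -0.43 and Tdgf1 with Cd55 at 0.053 in place of -0.43. Sall4 with Klf4 was at -0.14 without the fit, and Sox2 with Itga6 went from -0.30 to -0.11.

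**Figure D5:**
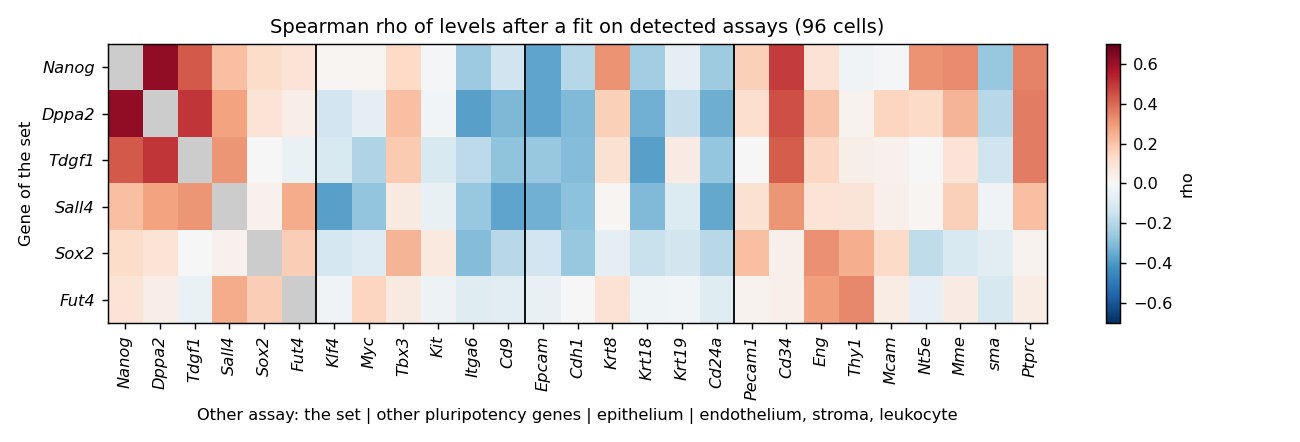
Colours give Spearman's rho of levels over 96 cells, after a fit on the number of detected assays, between the 6 genes of the set that 10% of cells or more detected (rows) and, from left to right, each other, other pluripotency genes, epithelial genes and markers of endothelium, stroma and leukocytes. The darkest red cell is Nanog with Dppa2 at 0.62, and Epcam, Cdh1, Krt18 and Cd24a are blue in the rows of Nanog, Dppa2, Tdgf1 and Sall4.

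The genes were also compared between cells with and without Epcam. Of the 74 cells with Epcam, Nanog was found in 62 (83.8%, interval 73.4 to 91.3%) and of the 22 without it in 15 (68.2%, interval 45.1 to 86.1%). Sox2 was found in 17 of 74 (23.0%, interval 14.0 to 34.2%) and 9 of 22 (40.9%, interval 20.7 to 63.6%), Sall4 in 42 and 15, Fut4 in 30 and 5, and Pou5f1 in 6 and 1. The intervals overlapped for each of these genes. The cells with Epcam detected a median of 55.5 assays and those without 46, and each group held 4 low-Gapdh cells.

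Several of these genes have named pseudogenes in the RefSeq table of mouse genes (GRCm38.p6): 5 for Pou5f1, 2 each for Nanog and Tdgf1 and 1 for Fut4. The sources used here give no primer sequences, and whether an assay also amplified such a copy was not tested. The genes themselves lie on chromosome 6 for Nanog, 16 for Dppa2, 9 for Tdgf1 and Fut4, 2 for Sall4, 3 for Sox2, 17 for Pou5f1, 12 for Esrrb and 4 for Lin28a.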

How the data were processed

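Single CD326-positive cells were lysed, their RNA was reverse transcribed and preamplified in a single reaction, and products were measured with the dye EvaGreen on a Fluidigm Biomark chip, per the labels' protocols. The authors deposited raw Ct scores with no normalization, in which 40 stands for no Ct, and a ratio table of fold changes relative to the housekeeping gene and to cell 1, per the file headers. Recomputing those ratios with Gapdh from the Ct values gave them to within 6.55e-06 on the log2 scale. The baseline, threshold, quality settings, primers and number of animals were not stated in the labels or headers. Columns were matched to cells by number, and all were assigned.

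The 9 assays were matched by symbol or synonym to the RefSeq gene table. A Ct below 28 counted as detected, and 45 recorded values over the panel at 28 or above did not. No cell was removed, as doublet or otherwise. The count of detected assays and the Gapdh Ct served as measures of depth. Promoters came from a RefSeq table with 7 of the 9 genes. Named genes were the 9 genes, reference genes and Epcam, the neighbours of each in the order of shares, the 3 assays with the highest rho to each gene found in at least 10% of cells, and a list of other pluripotency genes. Genes with the lowest rho, the cells with Pou5f1 or Esrrb and the Sall4 ranges were chosen after their values were seen. The members and lists were chosen with earlier results of these data known. The correlation step was tested on simulated data. Python 3.11.15, numpy 2.4.6, pandas 2.3.3, scipy 1.17.1 and matplotlib 3.10.9 were used. Ct limits, subsets of cells, scales and kinds of correlation were tried as alternatives.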

Additional observations from a re-analysis of the deposited data

How the results depend on the processing

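The main results gave 58 values under other settings, of which 52 stayed within their interval, 1 SD or 1.5 times, and 6 moved. The share of values of the set that were detected, 41.0%, was 37.6% with a Ct limit of 24. Genes with a rho of at least 0.5 to a gene of the set numbered 5, and 2 with any recorded Ct, 3 in the 74 cells with Epcam, 8 without the low-Gapdh cells, 8 without the 10% of cells with the fewest genes and 22 without the fit on detected assays; the cause was not tested. Genes in at least 50% of cells numbered 4, or 3 with a limit of 24 or 26. Cells with Nanog and neither Pou5f1 nor Sox2 ranged from 51.0% to 58.1%. Of 81 shares of single genes, 5 left their interval: Dppa2 at 93.7% in the 63 cells that had all reference genes and 92.0% without the low-Gapdh cells, Sall4 at the stricter limits, and Esrrb at 0 in those 63 cells. Without cell 67 none of the 9 shares left its interval. Of 99 values of 9 named rho, an analysis added after seeing the data, 3 changed sign, all without the fit on detected assays: Nanog with Epcam 0.12, Dppa2 with Wnt7a 0.073 and Tdgf1 with Cd55 0.053. These 3 pairs were the only ones of the 9 with a negative rho. A further 12 values moved, among them Dppa2 with Tdgf1 at 0.33 and Nanog with Tdgf1 at 0.31 by Pearson's r. Nanog with Dppa2 ranged from 0.55 to 0.77. Mean levels moved in 22 of 95 values, mainly on the Gapdh and deposited fold scales, whose zero differs. No analysis paired between groups was possible because the labels place every cell in 1 group. Genes were paired within cells, and no test of this pairing was made. With 96 cells and no replicate wells, shares a few points apart cannot be told apart.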
